A study of Homo sapiens with 15 samples.

Results

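The classical cadherins and their catenins were followed through 5 groups of oral epithelial cells. Cadherins are calcium-dependent adhesion proteins that join neighbouring cells at adherens junctions, each binding its like on the next cell. Inside the cell the cadherin tail binds beta-catenin, beta-catenin binds alpha-catenin, and alpha-catenin binds the actin cytoskeleton, while delta-catenin holds the cadherin at the membrane. Squamous epithelia normally carry E-cadherin and P-cadherin, whereas N-cadherin is typical of mesenchymal and neural cells, and beta-catenin that is not bound or degraded also acts in the nucleus with TCF and LEF factors. The genes were taken by symbol, from a set chosen with earlier results of these data known. They were CDH1 (E-cadherin), CDH2 (N-cadherin), CDH3 (P-cadherin), CTNNA1 (alpha-catenin), CTNNB1 (beta-catenin) and CTNND1 (delta-catenin). All 6 were present, among 12995 genes measured in both tables of the series.

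RNA was measured by 3′ end sequencing, in which each transcript gives a single tag, in 15 libraries of 5 groups with 3 libraries each, all labelled with a time of 3 days. OKF6 is a line of normal oral epithelial cells, labelled wild type, and SCC25 and SCC15 are oral squamous carcinoma lines. The libraries of the +YBX1 groups (SCC25 +YBX1 and SCC15 +YBX1) came from carcinoma cells that carry the inducible system against YBX1 but received no doxycycline, and their genotype is labelled wild type. The -YBX1 groups (SCC25 -YBX1 and SCC15 -YBX1) came from the same cells given 1 ug/ml doxycycline to switch on the guide RNAs for Cas9, and their genotype is labelled as a YBX1 knockout. These cells were a sorted population that expressed both lentiviral markers, not single clones, and each cell type is represented by 1 line. OKF6 and SCC25 grew in a serum-free keratinocyte medium supplemented with growth factors, EGF among them, and calcium chloride. SCC15 grew in DMEM with foetal serum, whose calcium level the paper does not give. Line and medium therefore cannot be told apart for SCC15 against the others. The OKF6 and +YBX1 libraries received no doxycycline, so the agent and the loss of YBX1 cannot be told apart. The labels name no inducible system for OKF6, so line and system cannot be told apart in comparisons with OKF6. The labels do not say that the replicates are separate cultures, so p-values measure the spread between these libraries, which may be technical.

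Between 4075290 and 6118501 reads per library were assigned to genes, so that a single read was worth 0.138 to 0.226 CPM, which is counts scaled to 1e+06 reads. Levels are given as log2 CPM, with 0.5 added to each read count by the authors, so that a gene without reads still has a value, between -3.57 and -3.15 in OKF6. Tests were made with limma over all 12995 genes, with Benjamini-Hochberg adjustment and a threshold of 0.05, and a gene past it is said to be called. The keratinocyte markers (12 of 12 measured, among them KRT5, KRT14 and TP63) summed to 28406 to 38406 CPM in the OKF6 libraries and 13764 to 25385 CPM in SCC25 +YBX1, but to 93.1 to 129 CPM in SCC15 +YBX1, where KRT15, DSG3 and TP63 had at most 1 read in a library. Of the fibroblast markers 3 of 11 were measured. They summed to 114 to 142 CPM in OKF6, 700 to 1208 CPM in SCC25 +YBX1 and 326 to 342 CPM in SCC15 +YBX1. VIM alone had a mean CPM of 95.3, 837 and 314 in the same order. Of the immune markers 3 of 9 were measured, at most 44.4 CPM in sum in these groups, and no endothelial marker of 6 was in the tables. The part of these differences in the results below was not tested. In such bulk samples, fewer cells of a type and less RNA per cell cannot be told apart.

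Sequence upstream of the genes is shown for the cadherin that separates OKF6 from both carcinoma lines and for the catenin that ranged least over the libraries. RefSeq start sites of build GRCh38.p14 were matched for 3 of the 6 genes (CDH2, CTNNA1 and CTNNB1), with 7 windows that run from 250 bases before a start to 50 bases after it. CDH2 lies on chromosome 18 from 27932879 to 28177946 on the minus strand, and the window of its upstream start is chr18:28177081-28177380. CTNNB1 lies on chromosome 3 from 41194741 to 41260096 on the plus strand, with its window at chr3:41199255-41199554. Both are printed 5′ to 3′ on the strand of the gene, with GGGCGG and its reverse complement CCGCCC, the GC box, in capitals.
CDH2: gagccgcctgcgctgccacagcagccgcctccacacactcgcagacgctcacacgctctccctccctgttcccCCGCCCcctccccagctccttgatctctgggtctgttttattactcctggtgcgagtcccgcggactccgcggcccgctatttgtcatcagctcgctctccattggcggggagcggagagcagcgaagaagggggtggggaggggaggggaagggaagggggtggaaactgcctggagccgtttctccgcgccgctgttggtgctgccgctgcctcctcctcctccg
CTNNB1: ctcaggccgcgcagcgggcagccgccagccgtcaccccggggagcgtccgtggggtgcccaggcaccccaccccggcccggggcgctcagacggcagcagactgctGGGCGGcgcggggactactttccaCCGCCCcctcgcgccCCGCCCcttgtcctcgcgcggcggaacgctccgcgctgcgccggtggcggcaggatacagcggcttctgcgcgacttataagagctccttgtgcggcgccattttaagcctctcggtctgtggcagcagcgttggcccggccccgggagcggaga
The CDH2 window holds 1 GC box and 23 CG dinucleotides, and the CTNNB1 window 3 GC boxes and 39 CG dinucleotides, against a median of 14 CG dinucleotides over all 34796 windows of this length. A GC box is found in 44.9% of all windows. CAGGTG or CACCTG, the E-box core that the SNAI and ZEB repressors bind, is found in 20.6% of all windows and in neither of the printed ones. These are matches of letters in a window and say nothing about binding.

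E-cadherin RNA was abundant in OKF6 and SCC25 and nearly absent from SCC15. CDH1 had log2 CPM of 8.31, 8.58 and 8.69 in the OKF6 libraries. It had 7.24, 6.81 and 6.93 in SCC25 +YBX1, and 0.45, -1.98 and 1.16 in SCC15 +YBX1. Every SCC15 +YBX1 library was far below every SCC25 and OKF6 library, with 1 to 14 reads of CDH1 per SCC15 +YBX1 library against 570 to 806 in SCC25 +YBX1 and 1653 to 2446 in OKF6. The mean CPM of SCC25 +YBX1 was 107 times that of SCC15 +YBX1, and that of OKF6 309 times. The log2 change was -7.12 (SE 0.62) for SCC15 against SCC25 and -8.65 (SE 0.62) for SCC15 against OKF6. Both were called (adjusted p = 5.84e-06 and 1.11e-06, limma).

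P-cadherin RNA was high in OKF6 and in SCC25 and far lower in SCC15. CDH3 is the close relative of CDH1 that basal squamous cells carry. In OKF6 its log2 CPM was 10.51, 9.46 and 9.05, and in SCC25 +YBX1 the libraries had 9.41, 9.29 and 9.49. In SCC15 +YBX1 it was 2.43, 1.39 and 1.92, from 15 to 29 reads. OKF6 and SCC25 overlapped, and SCC15 lay far below both. The log2 change of CDH3 was -7.49 (SE 0.36, adjusted p = 1.42e-07) for SCC15 against SCC25, a ratio of 176 between the mean CPM values. It was -7.76 (SE 0.36, adjusted p = 1.03e-07) for SCC15 against OKF6, and a ratio of 233.

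N-cadherin RNA ran the other way. CDH2 had 0 reads in each of the 3 OKF6 libraries. The SCC25 +YBX1 libraries had log2 CPM of 3.38, 3.13 and 3.83, from 44 to 68 reads, and those of SCC15 +YBX1 had 5.15, 5.77 and 5.58, from 195 to 323 reads. The 3 groups did not overlap, in the order OKF6, SCC25 and SCC15. Against a floor of 3 reads per library, CDH2 was at least 16.3-fold higher in SCC25 and at least 67.8-fold higher in SCC15 than in OKF6, and both were called (adjusted p = 5.06e-06 and 1.35e-07). Between the carcinoma lines the mean CPM of CDH2 was 4.15 times higher in SCC15, a log2 change of 2.05 (SE 0.43, adjusted p = 0.00277). The 3′ end of CDH2 is overlapped on the opposite strand by a long noncoding RNA gene that is not listed in the tables, and how strand was handled in counting is not given in the sources used here.

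**Figure D1:**
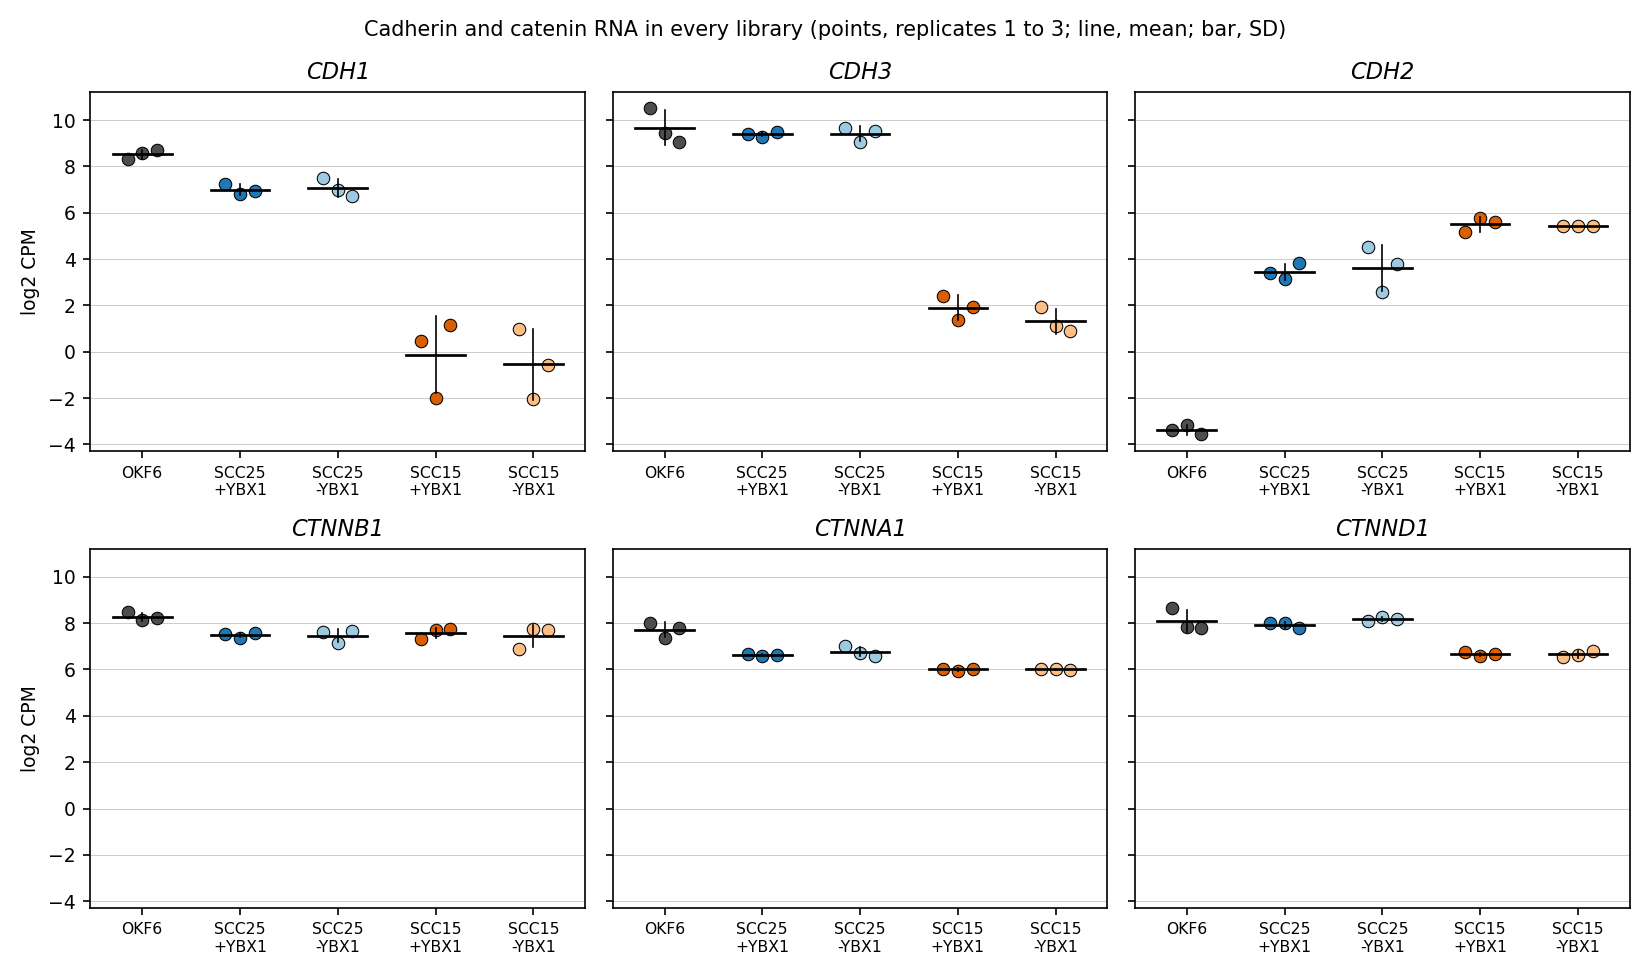
Each panel plots the log2 CPM of one gene in the 15 libraries by group, with points for replicates 1 to 3, a line at the mean and a bar for the SD. CDH1 and CDH3 drop by over 7 on the log2 scale between SCC25 and SCC15, and CDH2 climbs from 0 reads in OKF6 to its top in SCC15. No catenin plotted here ranges over more than 2.12.

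The 3 cadherins of this set therefore made up very different mixtures in the lines, which can be read as shares because each transcript gives a single tag. In OKF6 the cadherin reads were 67.7% ± 13.2 CDH3 and 32.3% ± 13.2 CDH1 (SD, n = 3), with no CDH2. The OKF6 libraries spread widely, with CDH1 at 17.9%, 35.3% and 43.8% of the cadherin reads in replicates 1, 2 and 3. In SCC25 +YBX1 they were 82.9% ± 1.79 CDH3, 15.8% ± 1.93 CDH1 and 1.35% ± 0.269 CDH2. In SCC15 +YBX1 they were 89.6% ± 5.45 CDH2, 7.96% ± 4.17 CDH3 and 2.45% ± 1.93 CDH1. CDH2 was thus the leading cadherin of SCC15 and the least of the 3 in SCC25. It did not make up for the other cadherins in amount. The summed cadherin level was 1266 ± 442 CPM in OKF6, 814 ± 59.9 CPM in SCC25 +YBX1 and 50.9 ± 7.89 CPM in SCC15 +YBX1, so the SCC25 sum was 16.0 times that of SCC15. The summed catenin level was 809 ± 180, 523 ± 19.1 and 359 ± 23.5 CPM in the same order. The cadherin sum was 1.55 ± 0.246 times the catenin sum in OKF6, 1.56 ± 0.120 in SCC25 +YBX1 and 0.141 ± 0.0146 in SCC15 +YBX1. This catenin sum leaves out JUP (plakoglobin), a catenin relative described below. The mean CPM of JUP was 1148 in OKF6, 1480 in SCC25 +YBX1 and 90.6 in SCC15 +YBX1. The catenin sums and ratios therefore hold only for the 3 catenins of this set. These shares and sums carry no test, since the members were chosen with results of these data known.

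The catenins of this set differed much less. Over the 15 libraries CDH1, CDH3 and CDH2 ranged over 10.7, 9.60 and 9.34 on the log2 scale, and CTNND1, CTNNA1 and CTNNB1 over 2.12, 2.05 and 1.57, where the median gene ranged over 2.59. Beta-catenin RNA was highest in OKF6. CTNNB1 had log2 CPM of 8.48, 8.11 and 8.22 in OKF6, 7.53, 7.37 and 7.56 in SCC25 +YBX1, and 7.33, 7.71 and 7.73 in SCC15 +YBX1. The carcinoma lines overlapped each other and both lay below OKF6. The log2 change of CTNNB1 for SCC15 against SCC25 was 0.10 (95% interval -0.30 to 0.50, adjusted p = 0.681). It was -0.78 (SE 0.18, adjusted p = 0.00862) for SCC25 against OKF6 and -0.68 (SE 0.18, adjusted p = 0.00951) for SCC15 against OKF6.

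Alpha-catenin RNA stepped down from OKF6 to SCC25 to SCC15. CTNNA1, on chromosome 5 from 138610967 to 138935034, had log2 CPM of 7.99, 7.38 and 7.78 in OKF6. It had 6.67, 6.59 and 6.64 in SCC25 +YBX1, and 6.04, 5.95 and 6.04 in SCC15 +YBX1. No group overlapped the next. The log2 change was -1.08 (SE 0.19, adjusted p = 0.00167) for SCC25 against OKF6 and -1.71 (SE 0.19, adjusted p = 2.12e-05) for SCC15 against OKF6. For SCC15 against SCC25 it was -0.63 (SE 0.19, adjusted p = 0.0187), and this call was lost with library medians set equal (-0.47, adjusted p = 0.0742), with quantile normalization (-0.38, adjusted p = 0.0950) and without a variance trend (adjusted p = 0.0521). It was also lost on leaving out SCC15 +YBX1 replicate 2 or SCC25 +YBX1 replicate 1 or 3 (adjusted p = 0.0594, 0.0630 and 0.0571).

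Delta-catenin RNA separated SCC15 from both other lines, as CDH3 did. CTNND1, on chromosome 11 from 57753243 to 57819546, had log2 CPM of 8.65, 7.84 and 7.81 in OKF6 and 8.01, 8.00 and 7.77 in SCC25 +YBX1. In SCC15 +YBX1 it had 6.73, 6.60 and 6.65. OKF6 and SCC25 overlapped, and SCC15 lay below both. The log2 change was -1.26 (SE 0.23, adjusted p = 0.00111) for SCC15 against SCC25, where the mean CPM of SCC25 was 2.41 times that of SCC15. It was -1.44 (SE 0.23, adjusted p = 0.000349) for SCC15 against OKF6.

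Counted over the 6 members, SCC15 against SCC25 gave 1 called higher in SCC15 (CDH2), 4 called lower (CDH1, CDH3, CTNNA1 and CTNND1) and 1 not called (CTNNB1), where 43.6% of all genes tested were called in this comparison. SCC15 against OKF6 gave all 6 called, CDH2 higher and the other 5 lower, where 50.3% of all genes were called. SCC25 against OKF6 gave CDH2 higher, CTNNA1 and CTNNB1 lower and 3 not called, where 30.2% of all genes were called, 62.5% of them higher in SCC25 (52.2% with quantile normalization). The median log2 change of the members was -0.95, -1.57 and -0.53 in these comparisons, beside -0.01, 0.10 and 0.13 over all genes. These comparisons share libraries. The median of all genes moved to 0.14 and 0.17 in SCC15 against SCC25 with library medians or quantiles set equal, and every called member kept its direction under both in the 3 comparisons.

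The call of CDH1 in SCC25 against OKF6 also depended on the fit. All 3 SCC25 +YBX1 libraries lay below all 3 OKF6 libraries, with a mean CPM 2.88 times higher in OKF6. The log2 change was -1.53 with an SE of 0.62, which is shared with the SCC15 libraries of 1 to 14 reads, and an adjusted p of 0.0873. Fitted on the OKF6 and SCC25 libraries only, the SE was 0.20 and the adjusted p 0.00171. The change was also called with quantile normalization (adjusted p = 0.0317), with 2 added to the reads in place of 0.5 (adjusted p = 0.0257) and with voom weights on the recovered reads (adjusted p = 0.00162). CDH3 and CTNND1 were not called in SCC25 against OKF6, at -0.27 (95% interval -1.06 to 0.52) and -0.18 (95% interval -0.68 to 0.33), each with an adjusted p of 0.593. Replicate 1 of OKF6 held the highest level of both genes, and without it the changes were 0.14 and 0.10.

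**Figure D2:**
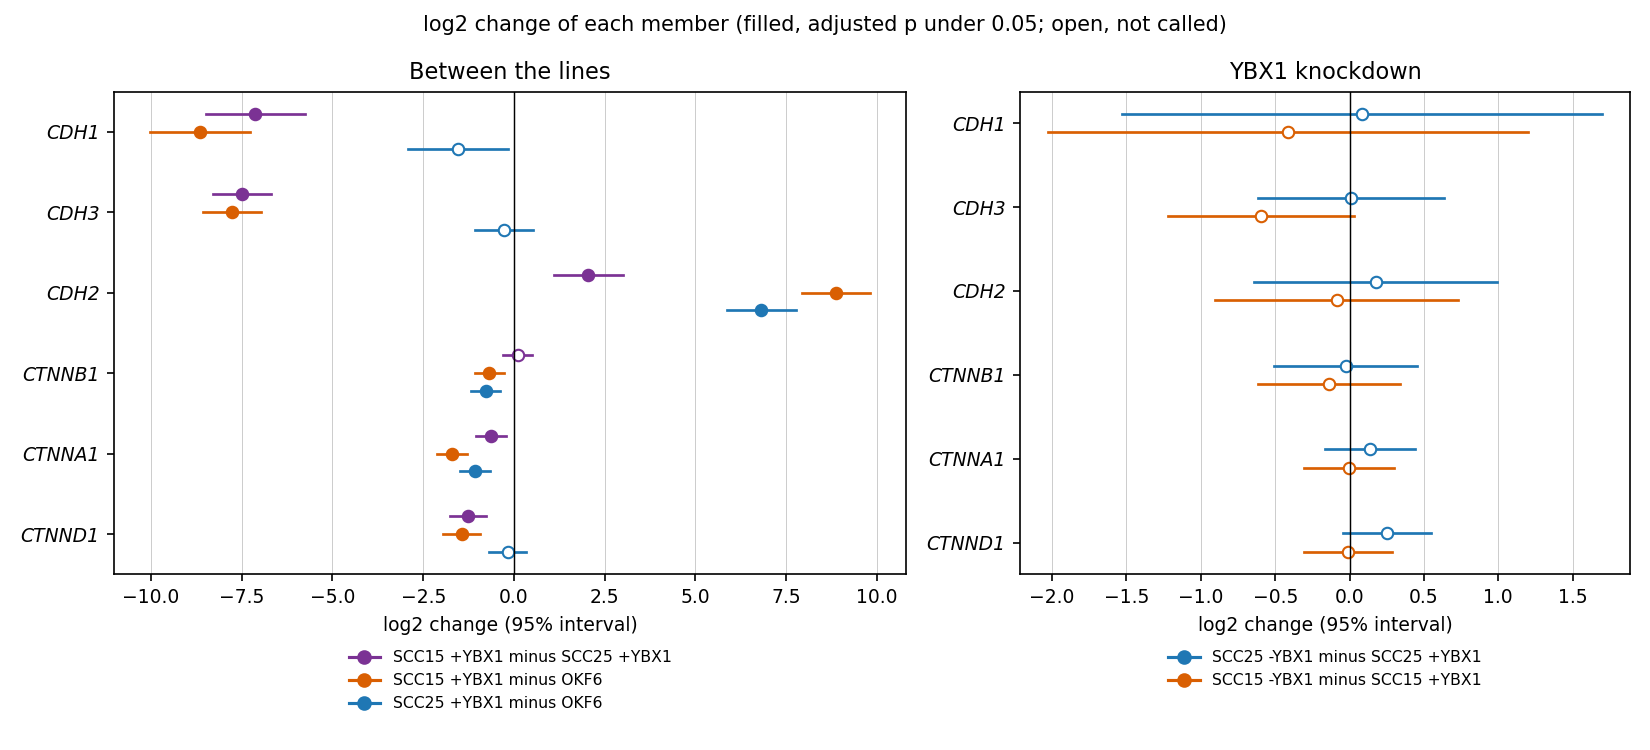
Points show the log2 change of each gene with its 95% interval, between the lines on the left and for the YBX1 knockdown on the right, filled where the adjusted p was under 0.05. Between the lines CDH1 and CDH3 sit between -8.65 and -7.12 in both SCC15 comparisons and CTNNB1 between -0.78 and 0.10 in all 3, while every knockdown point is open.

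The knockdown comparisons ask whether lowering YBX1, a cold-shock domain protein that binds RNA and DNA, changes these genes. The targeted gene was lower in every doxycycline library. YBX1 had log2 CPM of 6.74, 6.31 and 6.62 in SCC25 +YBX1 and 5.26, 4.70 and 3.65 in SCC25 -YBX1, a change of -2.01 (SE 0.35, adjusted p = 0.290). In SCC15 it had 5.11, 5.56 and 6.00 with +YBX1 and 3.36, 3.71 and 3.13 with -YBX1, a change of -2.15 (SE 0.35, adjusted p = 0.326). The groups did not overlap in either line, and the change did not pass the threshold over all genes.

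No cadherin or catenin was called in either knockdown. In each line 0 of the 6 members and 0% of the 12995 genes were called with limma, and also with voom weights. An unadjusted p under 0.05 was found for 401 genes in SCC25 and 302 in SCC15, none of them a member. That is a smaller share of all genes than the 0.05 that p-values give on average without any change. YBX1 itself was not called, so the absence of calls does not show that the members were unchanged. CTNND1 in SCC25 was the member whose libraries did not overlap, as was the case for 7.31% of all genes. The SCC25 -YBX1 libraries had log2 CPM of 8.07, 8.27 and 8.19 for it, a change of 0.25 (95% interval -0.04 to 0.55, unadjusted p = 0.0868, adjusted p = 1.00) that was positive in each of the 3 pairs of equal replicate number (0.07, 0.27 and 0.42). Knockdown intervals and p-values come from the limma fit without a replicate block and do not use these pairs. In SCC15, where the libraries of 7.04% of all genes did not overlap, those of all 6 members overlapped.

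The remaining knockdown values are given with intervals whose SE is pooled over all groups of the fit. In SCC25 the change of CDH1 was 0.08 (95% interval -1.53 to 1.70), that of CDH2 0.17 (-0.64 to 0.99) and that of CDH3 0.01 (-0.61 to 0.64). The CDH1 interval rests on an SE of 0.75 that is shared with the SCC15 libraries of 1 to 14 reads. The SD of CDH1 was 1.65 and 1.53 in SCC15 +YBX1 and -YBX1, but 0.22 and 0.40 in SCC25 +YBX1 and -YBX1. This interval is therefore wider than the spread of the SCC25 libraries calls for. The errors and intervals of CDH1, CDH3 and CTNNB1 in SCC15 and of CDH2 in SCC25 are narrower than their own libraries call for. In +YBX1 and -YBX1 the SD was 0.52 and 0.54 for CDH3 and 0.22 and 0.48 for CTNNB1 in SCC15. For CDH2 in SCC25 it was 0.35 and 0.98. These intervals therefore do not bound the change. In SCC25 the change of CTNNA1 was 0.14 (-0.16 to 0.44) and that of CTNNB1 -0.03 (-0.50 to 0.45). CDH2 was the most variable of them in SCC25 -YBX1, at 4.51, 2.56 and 3.80. In SCC15 the intervals were -0.90 to 0.73 for CDH2, -0.31 to 0.30 for CTNNA1, -0.62 to 0.34 for CTNNB1 and -0.30 to 0.28 for CTNND1. CDH1 in SCC15 -YBX1 had log2 CPM of 1.00, -2.05 and -0.57, from 1 to 14 reads, a change of -0.41 (SE 0.75), and changes of the size of this error were not detectable at this depth. CDH3 in SCC15 had log2 CPM of 1.93, 1.12 and 0.90 with -YBX1, on 12 to 27 reads. The change was -0.59 (95% interval -1.22 to 0.03, unadjusted p = 0.0613, limma without a block). It was negative in each of the 3 pairs of equal replicate number (-0.50, -0.27 and -1.01), although the groups overlapped. The test of the difference between the knockdown changes of SCC15 and SCC25 called 0 of the 6 members and 0% of all genes. An unadjusted p under 0.05 was found for 294 genes, again a smaller share than 0.05, and none of them was a member. In the cadherin reads, CDH3 took 81.9% ± 3.37 in SCC25 -YBX1 beside the 82.9% ± 1.79 of SCC25 +YBX1, and CDH2 took 92.6% ± 3.83 in SCC15 -YBX1 beside the 89.6% ± 5.45 of SCC15 +YBX1 (SD, n = 3).

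CDH1 and CDH3 are neighbours on chromosome 16, CDH3 from 68636189 to 68727468 and CDH1 from 68737292 to 68835537 of hg38, both on the plus strand, and the genes around them were read from the same fit. The tables list 13 genes that start within 500000 bases of the CDH1 start, CDH1 and CDH3 among them. In SCC15 against SCC25, 6 of the other 11 were called, beside 43.6% of all genes. ESRP2, an epithelial splicing regulator that starts 499190 bases from CDH1, had a log2 change of -6.80 (adjusted p = 3.60e-07), near the size of the CDH1 and CDH3 changes. HAS3, a hyaluronan synthase, had a log2 change of -2.19, ZFP90 of -1.29, UTP4 of -0.74 and CHTF8 of -0.58, and SLC7A6 of 0.74. The calls of UTP4 and CHTF8 were lost with library medians or quantiles set equal. PLA2G15, SLC7A6OS, PRMT7, TANGO6 and SNTB2 were not called. TANGO6, which starts 106239 bases beyond the CDH1 start, had a change of -0.80 (adjusted p = 0.237), so that neither ZFP90 nor TANGO6, the listed genes nearest to the pair on either side, had a change of its size.

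**Figure D3:**
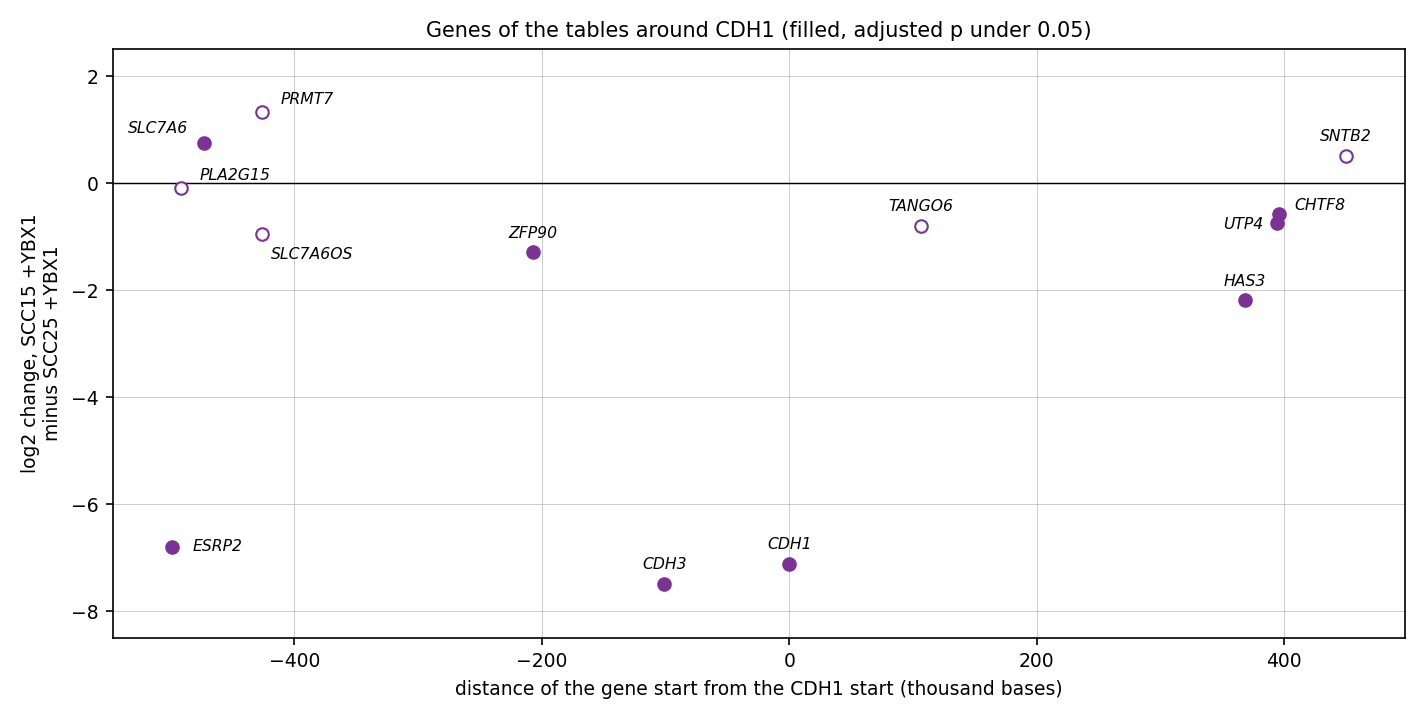
The log2 change of SCC15 +YBX1 minus SCC25 +YBX1 is plotted for the 13 genes against the distance of their start from the CDH1 start in kilobases, filled where called. CDH3, CDH1 and ESRP2 lie near -7 and the other 10 genes between -2.19 and 1.33.

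The wider junction genes were described with lists drawn up by function, beside the 43.6% of all genes called between SCC15 and SCC25. Of the other cadherins 4 of 20 were measured. CDH13 (T-cadherin, which is anchored to the membrane without a catenin-binding tail) had log2 CPM of 3.51, 3.95 and 4.39 in SCC25 +YBX1 and 0 reads in every library of SCC15 +YBX1, which makes SCC25 at least 28.9-fold higher (adjusted p = 5.48e-07). CDH23, a long cadherin of the inner ear hair cells, had at most 2 reads in the SCC25 +YBX1 libraries, and SCC15 was at least 12.0-fold higher (adjusted p = 0.000212). CDH4 and CDH24, on at most 19 and 13 reads in SCC15 +YBX1, were not called. Of the catenin relatives 4 of 7 were measured, with 1 called higher in SCC15 and 3 lower (median log2 change -1.10). JUP, plakoglobin, which can take the place of beta-catenin on the cadherin tail, had log2 CPM of 10.84, 10.43 and 10.26 in SCC25 +YBX1 and 6.52, 6.75 and 6.19 in SCC15 +YBX1, a change of -4.03 (adjusted p = 1.38e-06). ARVCF, a relative of delta-catenin, was higher in SCC15 by 2.51 (adjusted p = 0.00703). PKP4 and CTNNAL1 were the others called lower, at -0.55 and -1.64, and PKP4 lost its call with library medians set equal (adjusted p = 0.127) and with quantile normalization (adjusted p = 0.213).

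Genes that link the junction to actin were lower or not called in SCC15 with 2 exceptions. Among 17 measured genes of nectins, afadin and actin linkers, 8 were called lower, 2 higher and 7 were not called (median -1.26). The largest changes were those of NECTIN1, a nectin of adherens junctions, at -4.15 (adjusted p = 3.33e-07) and of ACTN1, an actin crosslinker, at -3.58 (adjusted p = 2.89e-07). Of 14 genes of cadherin turnover and phosphorylation, 9 were called lower, 1 higher and 4 were not called (median -1.63). PTPRK, a receptor tyrosine phosphatase that acts on junction proteins, changed by -3.02 (adjusted p = 7.00e-06) and FER, a tyrosine kinase that binds delta-catenin, by -2.81 (adjusted p = 0.000541). Against OKF6, where 50.3% of all genes were called, the same lists gave 9 lower and 2 higher of 17, and 9 lower and none higher of 14, in SCC15, with NECTIN1 at -4.56 in the first list, and PTPN1 at -2.67 and YES1 at -2.01, a phosphatase and a kinase, in the second. SCC25 against OKF6, where 30.2% of all genes were called, gave 1 lower and 1 higher of the 17. Of the 14 it gave 2 lower and 2 higher. LMO7 (-4.21, on at most 4 reads in SCC25 +YBX1), NECTIN2 (0.59), YES1 (-1.52) and FER (1.40) had the largest changes. The calls of NECTIN2 and FER were lost with quantile normalization.

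The genes that degrade beta-catenin or act with it in the nucleus moved both ways. Of 16 measured, 3 were called higher in SCC15 than in SCC25, 5 lower and 8 were not called (median 0.01). LEF1, a DNA-binding partner of beta-catenin, had 0 reads in each OKF6 and SCC25 +YBX1 library and log2 CPM of 3.76, 3.55 and 4.15 in SCC15 +YBX1. It was at least 22.9-fold higher in SCC15 than in SCC25 (adjusted p = 7.12e-07) and at least 21.1-fold higher than in OKF6 (adjusted p = 5.20e-07). BCL9L, a coactivator of beta-catenin, had log2 changes of -3.43 for SCC15 against SCC25 and -3.41 for SCC15 against OKF6. Of the transcripts commonly induced by beta-catenin 6 of 9 were measured, and 2 were called higher in SCC15 than in SCC25, 1 lower and 3 not called. AXIN2, a scaffold of the destruction complex, had log2 CPM of 3.02, 2.10 and 3.24 in SCC15 +YBX1, 0.32, 0.55 and 0.13 in OKF6, and at most 2 reads in SCC25 +YBX1. It was at least 11.6-fold higher in SCC15 than in SCC25 (adjusted p = 8.18e-05). NKD1, an inhibitor of Wnt signalling, was higher in SCC15 by 2.56 than in SCC25 (adjusted p = 0.0305), on at most 33 reads. Its relative NKD2 had 0 reads in OKF6 and was at least 24.5-fold higher in SCC25 and at least 40.8-fold higher in SCC15. RNF43, a ubiquitin ligase for Wnt receptors, was the gene of this list called lower in SCC15 than in SCC25, at -2.43. CTNNB1 RNA overlapped between the lines, as given above.

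Of the 7 measured repressors of CDH1, 2 were called higher in SCC15 than in SCC25, 1 lower and 4 were not called. ZEB1, a zinc finger repressor, had log2 CPM of 4.48, 3.78 and 4.45 in SCC15 +YBX1 and 0.68, 0.56 and 0.82 in SCC25 +YBX1, a change of 3.55 (adjusted p = 0.000431), and at most 1 read in the OKF6 libraries. ZEB2 had at most 3 reads in a library of SCC25 +YBX1, and SCC15 was at least 4.57-fold higher (adjusted p = 0.00741). SNAI2 was the repressor called lower, at -1.99. Against the floor of 3 reads in OKF6, ZEB1 was at least 28.4-fold higher in SCC15 and at least 2.24-fold higher in SCC25, and both were called. SNAI1 was called higher in SCC25 than in OKF6, at 3.21, and lost that call with quantile normalization (1.78, adjusted p = 0.152). Against OKF6, 50.3% of all genes were called for SCC15 and 30.2% for SCC25. SCC15 against OKF6 gave 4 higher and 4 lower of the 16 genes of destruction and TCF. It gave 3 higher and 2 lower of the 6 induced transcripts, and 3 higher and 1 lower of the 7 repressors. NKD1 changed by 3.42, on at most 5 reads in OKF6. SCC25 against OKF6 gave 3 higher and 1 lower of the 16, with AMER1 at 2.61 and TCF7L1 at 1.21, then 1 higher and 2 lower of the 6, with AXIN2 at least 1.88-fold higher in OKF6, and 2 higher of the 7. All 12 keratinocyte markers were called lower in SCC15 than in SCC25, with KRT6A at -11.75 and PKP1 at -11.71, and their part in the cadherin changes was not tested. Against OKF6 all 12 were called lower in SCC15 and 3 in SCC25. Of the 3 measured fibroblast markers (COL1A1, LUM and VIM), 1 was called higher and 2 lower in SCC15 than in SCC25. LUM was the higher one, on at most 15 reads in SCC15 +YBX1. COL1A1 (-1.57) and VIM (-1.38) were lower in SCC15. Against OKF6, VIM was called higher in both carcinoma lines, by 1.72 in SCC15 and 3.10 in SCC25. No gene of these lists was called in either knockdown.

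The genes whose pattern over the 15 libraries was most like that of each member were taken among genes above the median level, as the 3 with the highest Pearson r, which is given as a description of libraries that share lines. For CDH1 they were SERPINB5, KRT19 and CORO2A (r = 0.990, 0.988 and 0.988), and for CDH3 ANXA2, LGALS3 and ANXA1 (0.997, 0.993 and 0.993). For CDH2 they were ENAH, GAL and NUP188 (0.976, 0.976 and 0.975). For CTNND1 they were IQGAP1, HIF1A and IGFBP7 (0.985, 0.984 and 0.980), and for CTNNA1 NDFIP2, AMOTL1 and ENDOD1 (0.985, 0.981 and 0.978). CTNNB1 had the least close neighbours, TRMT6, IK and OAT (0.948, 0.922 and 0.917). Among the members themselves r was 0.976 between CDH1 and CDH3, 0.964 between CDH3 and CTNND1, -0.930 between CDH2 and CTNNA1, and 0.288 between CDH3 and CTNNB1, all over 15 libraries.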

How the data were processed

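Libraries of the QuantSeq 3′ FWD type were made by the authors. Cutadapt was used for trimming, HISAT2 for alignment to hg38, featureCounts for gene counts and limma for normalisation and filtering. The gene annotation and counting options are not given in the sources used here. The deposited values are log2 CPM, the log2 of the read count plus 0.5 per 1e+06 reads of the normalised library size, in separate tables for the lines and for the knockdown. The 6 libraries present in both agree within 5e-08. With a library's lowest value set to 0 reads, the values returned whole reads in 100% of cases (within 0.02). The depth covers counting error only.

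The deposited log2 values were tested with limma 3.58.1 in R 4.3.3 (lmFit, eBayes with a variance trend, two-sided, Benjamini-Hochberg over 12995 genes, threshold 0.05), with all groups of a table in the fit. The fit of SCC15 against SCC25 was checked on simulated libraries with known changes and the same dispersion for every gene. The unequal spread of the real replicates and the knockdown comparisons were not simulated, so the check does not cover them. Errors are SE of limma or SD. The deviations of +YBX1 and -YBX1 libraries with the same number from their group means correlated, with r over 6497 genes of 0.135, 0.470 and 0.425 in SCC25 and 0.498, 0.312 and 0.117 in SCC15, so the numbers were taken to pair them. The pairing comes from this check and the numbers in the labels. Between the lines the correlations for equal numbers ran from -0.198 to 0.264, and there the numbers were not taken to pair the libraries. The block was an alternative fit.

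Replicates of a group differed by more than sampling noise (chi-square per degree of freedom 3.99 to 80.8). Sequence pieces of 75 bases from the last 500 bases of each member's transcript (86 per gene) mapped as well elsewhere in 0 cases. Gene positions are from GENCODE v44, promoter windows from RefSeq. The genes, lists and alternatives were chosen with earlier results of these data known. The text names the members, YBX1, the 2 called genes of largest change per list and comparison, all genes near CDH1, and the 3 most alike genes. Others called in a list of 7 or fewer, such as PKP4, CTNNAL1, RNF43, SNAI2 and SNAI1, and the uncalled CDH4 and CDH24, were named after their values were seen. Alternative fits used the replicate block, voom weights on the recovered reads, 2 added to the reads, library medians set equal, quantile normalization, a robust or untrended variance, the genes over the first quartile, the compared groups alone, and every library left out in turn. Spearman's rho was the alternative for likeness. Some genes that this rule names are not reported here.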

Additional observations from a re-analysis of the deposited data

How the results depend on the processing

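The counts of called members moved by at most 1.5 times under every alternative, so that SCC15 against SCC25 gave 4 or 5, SCC15 against OKF6 5 or 6 and SCC25 against OKF6 2 to 4. CDH2 was not tested where genes under the first quartile were left out, because its mean lay there. CDH1, CDH2, CDH3 and CTNND1 in SCC15 against SCC25, and all 6 members in SCC15 against OKF6, were called in every fit that tested them. The exceptions among called or nearly called members were CTNNA1 in SCC15 against SCC25 and CDH1 in SCC25 against OKF6, given above. In the knockdowns the directions of small changes turned. With quantile normalization CTNNB1 in SCC25 had a change of 0.0019, and CTNNA1 and CTNND1 in SCC15 of 0.030 and 0.031. Leaving out each library in turn gave -0.13 to 0.26 for CDH1, -0.27 to 0.71 for CDH2, -0.12 to 0.19 for CDH3 and -0.12 to 0.14 for CTNNB1 in SCC25. It gave -1.34 to 0.34 for CDH1, -0.26 to 0.049 for CDH2, -0.036 to 0.011 for CTNNA1, -0.29 to 0.13 for CTNNB1 and -0.093 to 0.050 for CTNND1 in SCC15. For the difference of the knockdown changes it gave -1.43 to 0.26 for CDH1, -0.79 to 0.18 for CDH2 and -0.28 to 0.16 for CTNNB1. In SCC25 against OKF6 it gave -0.59 to 0.14 for CDH3 and -0.32 to 0.10 for CTNND1. The cause was not tested.

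The replicate block, which pairs the +YBX1 and -YBX1 libraries, called 0 members in each knockdown and 0 of 12995 genes, also as a block within each line, an alternative added after the data were seen, and it changed no other call of a member. The genes most like a member depended on the measure, since Spearman's rho named 0 of the same 3 for CDH1, CDH2, CDH3 and CTNNA1 and 1 of 3 for CTNNB1 (IK) and for CTNND1 (IQGAP1). CDH1 and CDH3 in SCC15 rest on 1 to 29 reads per library, which limits what a change in that line can show.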
